A study of Homo sapiens with 12 samples.

Results

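The KLF (Krüppel-like factor) genes examined here encode transcription factors, and 10 of them were taken by symbol from a list: KLF2, KLF3, KLF4, KLF5, KLF6, KLF9, KLF10, KLF11, KLF13 and KLF15. Each symbol matched 1 of the 54127 gene IDs counted, and each of the 10 was among the 14505 genes that passed the filter on low counts. RNAseq was done on C4-2 cells, a castration-resistant line grown from LNCaP prostate cancer cells. The question of the study was how inhibition of the kinase PBK alters transcription in prostate cancer. The control group was given DMSO, and the other was given the PBK inhibitor HI-TOPK-032, called PBKi, at 1 µM for 6 h, with 6 libraries in each group, and all cells were grown in RPMI with 10% serum, which carries steroid hormones. All libraries came from 1 cell line, an siRNA arm of the study was not analysed here, and the labels describe the RNA as from flow-sorted cells whereas the methods name no sort. Nothing in the labels says that replicates were separate cultures, so p-values measure the spread between these libraries, which may be technical.

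A KLF protein binds GC boxes and CACCC elements in promoters through 3 zinc fingers at its C terminus, while the rest of the protein recruits coactivators or corepressors. KLF2, KLF4, KLF5 and KLF6 belong to a group that mostly activates transcription with the help of acetyltransferases. KLF3 recruits the corepressor CtBP, and KLF9, KLF10, KLF11 and KLF13 recruit the corepressor Sin3A. KLF15 stands outside these groups. Several of the genes are themselves rapid targets of signals: KLF9 and KLF15 of steroid hormones, KLF10 and KLF11 of TGF-beta, KLF2 and KLF4 of the kinase ERK5 with MEF2 factors, and KLF6 of growth factors and stress. In the prostate, KLF5 is known as a factor of basal and luminal epithelial cells and KLF6 as a gene mutated in some tumours.

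The last zinc finger shows how alike the members are, and is printed for 6 of them because 3, KLF9, KLF11 and KLF13, were the closest in sequence of the 9 members compared (KLF10 was not among them) while only the transcript of KLF9 among them was called as changed, a difference in response that was not tested itself. Each line is the coding strand of 63 bases of GRCh37, 5′ to 3′, with the codons of the cysteines and histidines that hold the zinc ion in capitals. KLF9 is read from the minus strand at chr9:73002752-73002814 (exon 2 of 2), KLF11 from the plus strand at chr2:10192461-10192523 (exon 4 of 4) and KLF13 from the plus strand at chr15:31664320-31664382 (exon 2 of 2). KLF2 is read from the plus strand at chr19:16437774-16437836 (exon 3 of 3), KLF5 from the plus strand at chr13:73649953-73650015 (exon 4 of 4) and KLF15 from the minus strand at chr3:126062612-126062674 (exon 3 of 3).
KLF9: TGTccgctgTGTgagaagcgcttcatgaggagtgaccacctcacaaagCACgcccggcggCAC
KLF11: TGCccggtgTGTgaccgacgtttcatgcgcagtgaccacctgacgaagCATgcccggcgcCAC
KLF13: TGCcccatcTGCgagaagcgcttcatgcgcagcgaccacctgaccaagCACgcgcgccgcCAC
KLF2: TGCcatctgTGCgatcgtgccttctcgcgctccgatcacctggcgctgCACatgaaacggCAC
KLF5: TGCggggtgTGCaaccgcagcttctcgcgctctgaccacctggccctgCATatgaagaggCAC
KLF15: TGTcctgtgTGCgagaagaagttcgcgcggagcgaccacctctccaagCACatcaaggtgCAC

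Of the 63 bases, 50 were the same in KLF9 and KLF11 (79.4%), 50 in KLF9 and KLF13, and 49 in KLF11 and KLF13 (77.8%). Over all pairs of the 9 members compared, identity ran from 47.6% to 79.4% with a median of 61.9%, and 19 bases were the same in all 9. Reads of 40 bases could nevertheless be placed on single members. No stretch of 40 bases in a member transcript was found in another KLF or SP gene, and KLF2, KLF5, KLF6, KLF9, KLF10 and KLF15 shared none with any gene. KLF3 shared 342 of its 6731 stretches (5.08%), with 590 other genes, and KLF13 shared 0.446%. KLF4 (7.58%) and KLF11 (8.28%) each shared theirs with 1 overlapping long noncoding RNA that the count files do not list. KLF3-AS1, an antisense transcript, overlaps KLF3 exons by 265 bases, and reads of both cannot be told apart there without strand. It was counted at 0 to 0.397 CPM in DMSO and 0.201 to 0.517 CPM in PBKi, where CPM is the number of reads on a gene per 1000000 reads, scaled between libraries.

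Reads on genes numbered 9663203 to 28029908 in DMSO and 13122415 to 22817803 in PBKi libraries (two-sided exact permutation p = 0.905), and reads outside genes were 5.74% to 6.96% and 5.94% to 9.30% (exact permutation p = 0.206). The transcript of the targeted kinase, PBK, was also lower in PBKi (log2 fold change -0.42, adjusted p = 0.00194), although an inhibitor of the protein need not alter it. Replicates 1 to 3 lay apart from replicates 4 to 6 in both groups on the second principal component, and the labels do not say what sets them apart. The 10 luminal prostate markers that define the labelled cell type summed to 5123 to 6201 CPM in DMSO and 2589 to 3561 CPM in PBKi (exact permutation p = 0.00216), with none at 0. In DMSO the larger part of this sum was KLK3, with 2959 ± 214 CPM in DMSO and 1131 ± 241 in PBKi (SD, n = 6 each), and the other 9 markers summed to 2445 to 3056 and 1893 to 2312 CPM (exact permutation p = 0.00216). Of the 10 markers 6 fell, 0 rose and 4 were not called. Of other cell types, the 4 basal markers summed to 1.33 to 1.84 CPM in DMSO and 0.813 to 1.61 in PBKi, the 7 fibroblast markers to 22.0 to 27.0 and 20.5 to 25.4, and the 5 neuroendocrine markers to 7.03 to 15.6 and 6.91 to 10.6. The 6 endothelial markers found summed to 4.37 to 7.68 CPM in DMSO and 3.60 to 4.91 in PBKi (exact permutation p = 0.0152), 5 of them with a mean under 1 CPM, and the 8 immune markers to 2.77 to 4.70 and 5.24 to 6.43 (exact permutation p = 0.00216), 7 of them under 1 CPM, with CD68 as the exception and MS4A1 at 0 in all libraries. The part of these sums in the KLF values was not tested.

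Transcript levels of different members are compared here per length, as CPM per kilobase of exon. In DMSO cells KLF9 had the highest mean level, 18.6 ± 2.24 CPM per kilobase (SD, n = 6), followed by KLF15 with 14.1 ± 1.13, KLF3 with 12.5 ± 1.33 and KLF10 with 11.2 ± 0.738. The range of each of these overlapped that of the next. Within libraries, KLF9 was nevertheless above KLF15 in 6 of 6, KLF15 above KLF3 in 5 of 6 and KLF3 above KLF10 in 6 of 6 DMSO libraries. A lower group held KLF13 (7.61 ± 1.37 CPM per kilobase) and KLF11 (7.05 ± 0.139), and below these came KLF4 (3.17 ± 0.456), KLF6 (2.81 ± 0.564) and KLF5 (2.37 ± 0.286). KLF2 was lowest at 0.558 ± 0.0633 CPM per kilobase. Among neighbours in this order, only KLF10 and KLF13, KLF11 and KLF4, and KLF5 and KLF2 had ranges that did not overlap, and KLF13 was above KLF11 in 3 of 6 libraries. In PBKi cells the upper 4 were again KLF10, KLF15, KLF9 and KLF3, but in that order and within a narrow band, with means of 13.9, 12.8, 12.7 and 12.6 CPM per kilobase.

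**Figure D1:**
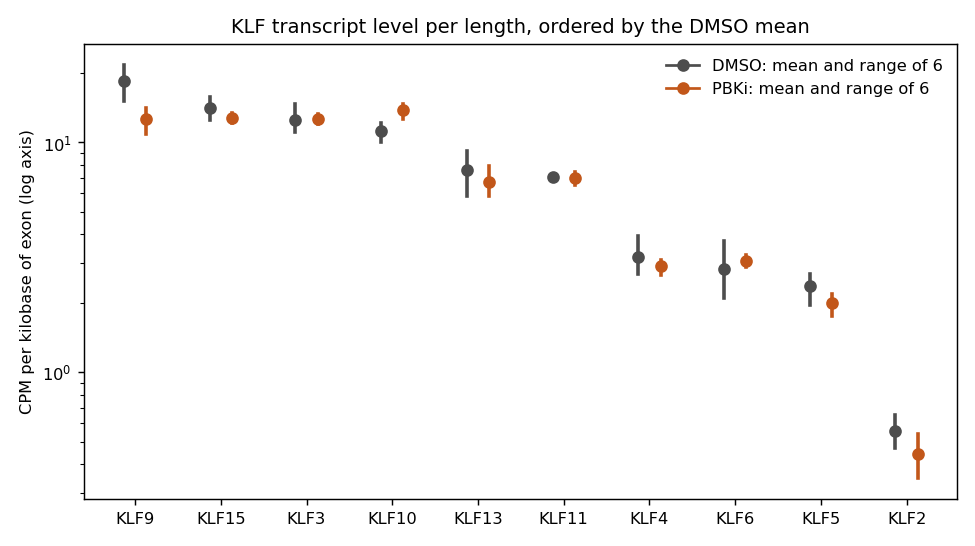
Transcript level of the 10 KLF members in CPM per kilobase of exon on a log axis, as the mean (point) and range (line) of 6 DMSO and 6 PBKi libraries, ordered by the DMSO mean. KLF9 leads in DMSO at 18.6 and KLF10 in PBKi at 13.9, while KLF2 is lowest in both groups.

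The 10 members summed to 79.9 ± 6.75 CPM per kilobase in DMSO and 74.0 ± 2.81 in PBKi (SD, n = 6 each), with ranges of 70.2 to 89.7 and 70.6 to 76.8. KLF9 made up 23.2% ± 0.975 of this sum in DMSO (21.6% to 24.3%) and 17.1% ± 1.37 in PBKi (15.0% to 18.4%). KLF10 went the other way, from 14.1% ± 1.11 (12.9% to 15.4%) to 18.7% ± 0.695 (17.9% to 19.7%). For both members the shares of the groups did not overlap. Per kilobase, KLF9 outweighed KLF10 in each DMSO library, whereas KLF10 exceeded KLF9 in 5 of 6 PBKi libraries. That order rests on the exon lengths used, 5201 bases for KLF9 and 3821 for KLF10. In CPM not divided by length, KLF9 stayed above KLF10 in PBKi, at 56.7 to 73.6 against 48.4 to 56.2. A share also depends on the other members, so a fall of KLF9 alone raises the share of KLF10.

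Among the 10 members, KLF10 rose with PBKi and KLF9 fell, and the other 8 were not called. A call is an adjusted p under 0.05 in the quasi-likelihood test of edgeR with Benjamini-Hochberg adjustment over all genes tested. This test called 41.7% of the 14505 genes, 20.1% as higher and 21.5% as lower in PBKi, so 2 of 10 members (20.0%) is a smaller share than that of all genes, a difference that was not tested. With the set of replicates (1 to 3 or 4 to 6) as a covariate, 4 of 10 members were called (KLF5 and KLF13 also, both as lower) against 48.6% of all genes. The median log2 fold change was -0.12 over the members and -0.01 over all genes tested, and the median size of the change, without its sign, was 0.15 and 0.19. The groups did not overlap for the same 2 members, against 20.1% of all genes, 10.5% as higher and 9.68% as lower. In bulk RNA, fewer cells that express a gene and less of its RNA per cell cannot be told apart. Protein was not measured.

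**Figure D2:**
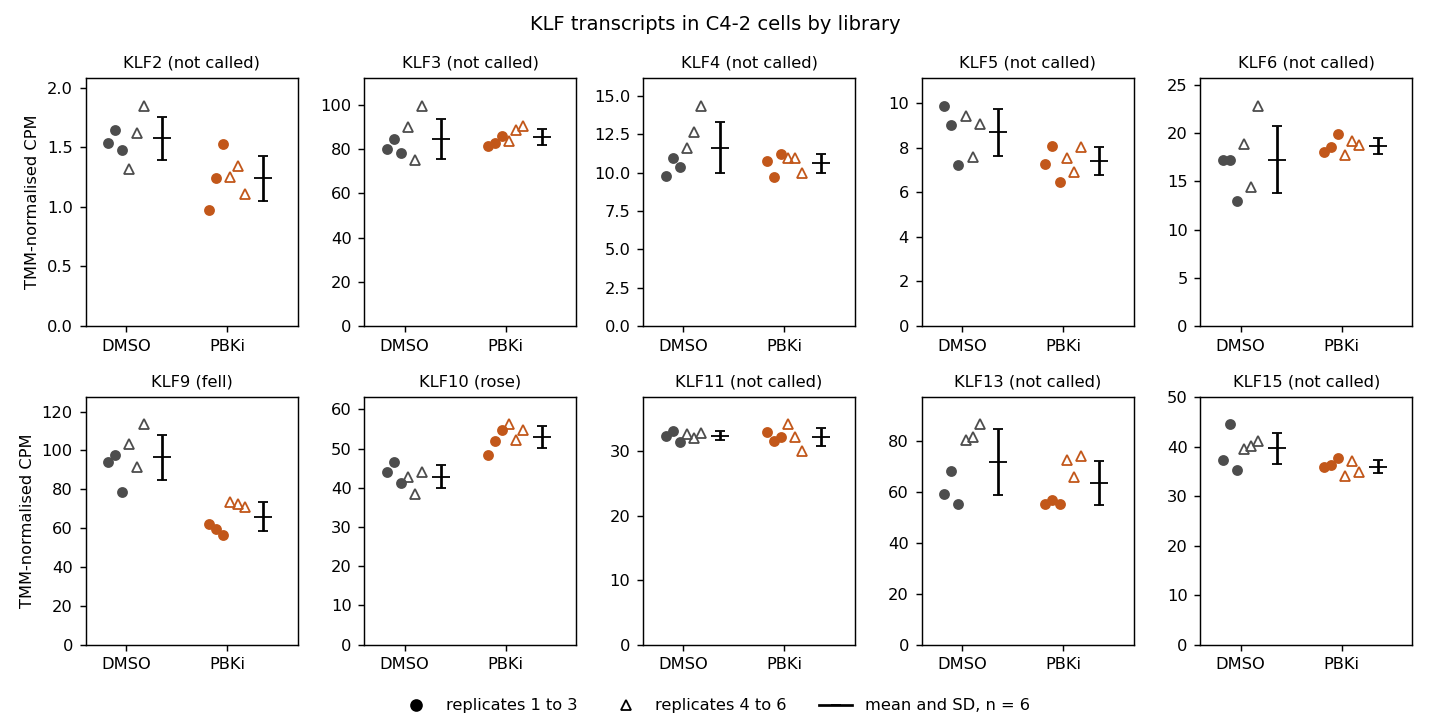
TMM-normalised CPM of each KLF member in every DMSO and PBKi library, each panel with its own axis from 0, circles for replicates 1 to 3, triangles for replicates 4 to 6, and bars for the mean and SD of 6. The PBKi libraries of KLF9 (56.7 to 73.6) all lie below those of DMSO, those of KLF10 (48.4 to 56.2) all lie above, and the groups overlap in the other 8 panels.

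KLF9 (ENSG00000119138, minus strand of chromosome 9 of GRCh37, 72999520 to 73029573) encodes a repressor that is induced by glucocorticoids and thyroid hormone in many tissues. In DMSO its lowest, median and highest levels were 78.7, 95.9 and 113 CPM, and in PBKi 56.7, 66.5 and 73.6 CPM. Each PBKi library thus lay below each DMSO library. On the log2 scale the fold change was -0.55 (SE 0.084, 95% interval -0.73 to -0.37, adjusted p = 5.69e-05 in edgeR's test), or 0.683 times the DMSO level. The replicate sets also differed within PBKi, with 56.7 to 62.1 CPM in replicates 1 to 3 and 70.9 to 73.6 in replicates 4 to 6, and the log2 fold change was -0.59 in the first set and -0.51 in the second. DMSO replicate 3 was the lowest DMSO library for KLF9 and PBKi replicate 3 the lowest PBKi library.

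KLF10 (ENSG00000155090, minus strand of chromosome 8, 103661012 to 103667953), also named TIEG1, encodes a repressor induced early by TGF-beta. Its lowest, median and highest levels were 38.4, 43.4 and 46.7 CPM in DMSO and 48.4, 53.4 and 56.2 CPM in PBKi. All 6 PBKi libraries were above all 6 DMSO libraries, although the nearest differed by little. This gave a log2 fold change of 0.31 (SE 0.056, 95% interval 0.19 to 0.42, adjusted p = 0.000307 in edgeR's test), a rise to 1.24 times the DMSO level. Replicates 1 to 3 alone gave 0.25, and replicates 4 to 6 alone gave 0.38.

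KLF11 and KLF13, the other Sin3A-binding members, were not called. KLF11, or TIEG2, is the paralog of KLF10 and is likewise known as a TGF-beta inducible gene. Its lowest, median and highest levels were 31.4, 32.5 and 33.2 CPM in DMSO and 30.0, 32.1 and 34.1 CPM in PBKi, and the DMSO range lay within the PBKi range. The log2 fold change of KLF11 was -0.0096 (SE 0.050, 95% interval -0.11 to 0.096, adjusted p = 0.897). KLF11 was the steadiest member in DMSO, with a coefficient of variation of 1.97% against 6.58% to 20.1% for the others. The interval of KLF11 does not reach the change of KLF10, but the difference between both genes was not tested.

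KLF13, which activates the chemokine gene CCL5 in T cells and represses other genes, gave 55.2, 74.2 and 86.4 CPM as lowest, median and highest in DMSO and 55.2, 61.4 and 74.2 CPM in PBKi. The groups overlapped over most of their range. The spread followed the replicate sets: DMSO replicates 1 to 3 lay at 55.2 to 68.0 CPM and replicates 4 to 6 at 80.3 to 86.4, and PBKi replicates 1 to 3 at 55.2 to 57.0 and replicates 4 to 6 at 65.8 to 74.2. Within neither group did the sets overlap for KLF13. Over all libraries the log2 fold change was -0.17 (SE 0.11, 95% interval -0.40 to 0.059, adjusted p = 0.221), with -0.10 in replicates 1 to 3 and -0.22 in replicates 4 to 6, neither past the threshold. With a covariate for the replicate sets KLF13 was called as lower (log2 fold change -0.17, adjusted p = 0.0130).

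KLF3, the CtBP-binding repressor first known from blood and fat cells, had lowest, median and highest levels of 75.0, 82.2 and 99.5 CPM in DMSO and 81.2, 84.9 and 90.5 CPM in PBKi. The PBKi range lay within that of DMSO. This gave a log2 fold change of 0.018 (SE 0.063, 95% interval -0.12 to 0.15, adjusted p = 0.847), and without DMSO replicate 5 it was -0.0077.

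KLF15 represses or activates genes of glucose, lipid and amino acid metabolism and is induced by glucocorticoids in liver and muscle. It was at 35.3, 39.9 and 44.5 CPM (lowest, median and highest) in DMSO and at 34.2, 36.1 and 37.7 CPM in PBKi. The upper DMSO libraries exceeded the PBKi range, while DMSO replicates 1 and 3 fell inside it. Its log2 fold change was -0.14 (SE 0.059, 95% interval -0.26 to -0.011, adjusted p = 0.0747, unadjusted p = 0.0345), and KLF15 was not called. Without DMSO replicate 3 it was called (log2 fold change -0.16, adjusted p = 0.0378).

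None of the 4 members of the activating group was called. KLF2, a factor of quiescent endothelium and naive T cells, rested on 13 to 41 counts per library. Its lowest, median and highest levels were 1.32, 1.58 and 1.85 CPM in DMSO and 0.977, 1.25 and 1.53 CPM in PBKi, so that the groups overlapped. The log2 fold change of KLF2 was -0.30 (SE 0.16, 95% interval -0.63 to 0.025, adjusted p = 0.175), the widest interval of the members.

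KLF4 is a factor of epithelial differentiation and of pluripotency. It was measured at 9.79, 11.3 and 14.4 CPM (lowest, median and highest) in DMSO and 9.75, 10.8 and 11.2 CPM in PBKi, with overlap. Its log2 fold change was -0.11 (SE 0.091, 95% interval -0.30 to 0.081, adjusted p = 0.348). By set, the estimate from replicates 1 to 3 was 0.054 and that from replicates 4 to 6 was -0.27, neither past the threshold (adjusted p = 0.702 and 0.145), and the difference between the sets had an unadjusted interaction p of 0.0534 (adjusted 0.927).

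KLF5 promotes proliferation of epithelial cells in gut and prostate, and its protein is modified by acetylation. Its lowest, median and highest levels were 7.25, 9.04 and 9.88 CPM in DMSO and 6.48, 7.41 and 8.09 CPM in PBKi. Of the DMSO libraries, 4 lay above the PBKi range and replicates 3 and 5 within it. Its log2 fold change was -0.24 (SE 0.097, 95% interval -0.44 to -0.037, adjusted p = 0.0547, unadjusted p = 0.0233), close to but not past the threshold. KLF5 was called as lower without DMSO replicate 3 (log2 fold change -0.29, adjusted p = 0.0213), without DMSO replicate 5 (-0.26, adjusted p = 0.0364) and with a covariate for the replicate sets (-0.24, adjusted p = 0.0435).

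KLF6, a stress-responsive factor that raises CDKN1A transcription, varied most in DMSO, with 13.0, 17.2 and 22.8 CPM (lowest, median and highest) and a coefficient of variation of 20.1%. In PBKi it stayed within 17.7, 18.6 and 20.0 CPM, with a coefficient of variation of 4.34%, and this range lay inside that of DMSO. The log2 fold change was 0.13 (SE 0.10, 95% interval -0.093 to 0.35, adjusted p = 0.348). In replicates 1 to 3 alone it was 0.29 and past the threshold (adjusted p = 0.0433), and in replicates 4 to 6 alone it was -0.024. The difference between the sets was not past the threshold (interaction adjusted p = 0.927).

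For none of the 10 members did the PBKi effect differ between replicates 1 to 3 and 4 to 6 at an unadjusted p under 0.05, as against 4.83% of all genes, and 0 genes did so after adjustment in edgeR's interaction test. The extremes of the groups were often the same libraries. DMSO replicate 3, the most deeply sequenced, was the lowest DMSO library for 6 members, and DMSO replicate 6 the highest for 6. PBKi replicate 3 was the highest PBKi library for 4 members and the lowest for 3. After subtraction of group means, the closest pairs over the 12 libraries were KLF3 with KLF6 (Pearson's r = 0.872) and KLF9 with KLF13 (r = 0.824), against a median r of 0.35 over the 45 pairs. These values describe libraries that share their replicate set, depth and scaling. KLF10 had r = 0.398 with KLF9.

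**Figure D3:**
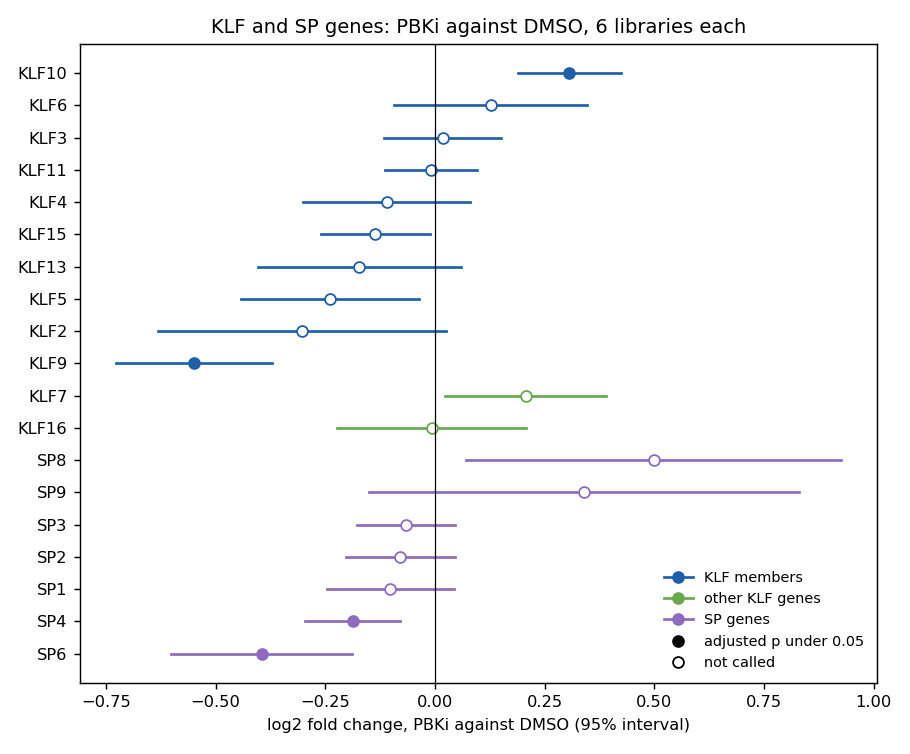
Log2 fold change of KLF and SP genes, PBKi against DMSO with 6 libraries each, as the estimate (point, filled at an adjusted p under 0.05) and its 95% interval (line). KLF10 (0.31) and KLF9 (-0.55) are the called members, and SP4 and SP6 the called SP genes, both below 0.

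Of the other 8 KLF genes, KLF7 and KLF16 were tested and neither was called. KLF7, an activator related to KLF6, had a log2 fold change of 0.21 (adjusted p = 0.0660), and KLF16, a Sin3A-binding repressor, had -0.0075 (adjusted p = 0.962). KLF7 was past the threshold, as higher, in limma-voom (adjusted p = 0.0446) and in edgeR with a replicate block (adjusted p = 0.0208). In replicates 1 to 3 alone its estimate was 0.38 (adjusted p = 0.000851), and in replicates 4 to 6 alone it was 0.050 (adjusted p = 0.788). KLF1, KLF8, KLF12 and KLF17 were below the filter, with at most 15 counts in any library, and KLF14 and KLF18 were not analysed here. The SP factors have the same kind of zinc fingers and bind GC boxes as well. Of the 7 SP genes tested, SP4 fell (47.9 ± 2.30 to 42.0 ± 1.98 CPM, SD, n = 6 each, log2 fold change -0.19, adjusted p = 0.00727) and SP6 fell (15.8 ± 2.18 to 11.9 ± 1.38 CPM, -0.40, adjusted p = 0.00371). The groups did not overlap for SP6, and 28.6% of the SP genes tested were called, against 41.7% of all genes. SP1, SP2, SP3, SP8 and SP9 were not called, and SP8 had the largest of their estimates, 0.50 (adjusted p = 0.0572) at about 1 CPM.

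The sequence before the transcription start was compared for the members because KLF and SP factors bind GC boxes there, also those of other KLF genes. RefSeq windows of 250 bases before the start on GRCh38.p14 matched 8 of the 10 members, with 10 windows since KLF5 and KLF11 have 2 starts each. KLF3 and KLF10 had no entry. The upstream windows of KLF9 and KLF15, the members with the highest levels per length in DMSO, are printed because they lie at both ends of the count of GC boxes, with matches to GGGCGG (a GC box, on either strand) or CACCC in capitals. The KLF9 window is chr9:70414658-70414907 and that of KLF15 chr3:126357409-126357658, both on the minus strand and written 5′ to 3′.
KLF9: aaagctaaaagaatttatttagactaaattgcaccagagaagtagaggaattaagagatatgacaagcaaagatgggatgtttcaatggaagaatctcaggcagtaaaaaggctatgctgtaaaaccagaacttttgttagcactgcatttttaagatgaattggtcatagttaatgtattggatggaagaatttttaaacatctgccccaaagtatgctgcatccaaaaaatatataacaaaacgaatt
KLF15: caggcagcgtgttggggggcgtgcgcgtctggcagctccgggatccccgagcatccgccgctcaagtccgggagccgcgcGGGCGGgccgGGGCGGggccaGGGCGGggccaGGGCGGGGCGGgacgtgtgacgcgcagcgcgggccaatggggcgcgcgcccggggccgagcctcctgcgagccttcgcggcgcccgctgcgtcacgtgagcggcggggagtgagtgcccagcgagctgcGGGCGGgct

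KLF15 had 6 matches to GGGCGG in this window and KLF9 had 0, so the latter holds no capitals. Over the 10 member windows 8 had at least 1 match, compared with 42.6% of 35114 windows of all genes: KLF2 and KLF4 had 4 matches each, KLF13 3 and KLF6 2, KLF11 2 and 6 at its starts, and KLF5 0 and 2. CACCC was found in 4 of 10 windows (those of KLF5, KLF13 and 1 of KLF11) and in 54.7% of all. AGAACA, the hexamer of steroid receptor elements, was found in 1 window, of KLF5, and in 12.4% of all windows, and TGACGTCA, the cyclic AMP response element, in 1 window, of KLF11, and in 1.65% of all. All motifs were searched on both strands. A CACCC match shared letters with TGACGTCA in KLF11 and with GGGCGG in KLF13. A match describes the letters only, and binding of a factor was not measured.

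Partners of the KLF proteins were examined as lists. Of 13 corepressors and coactivators tested, 7 fell and 1 rose, with a median log2 fold change of -0.16, against 41.7% of genes called and a median of -0.01 over all genes. RBBP7, a histone-binding subunit of the Sin3 complex that KLF9, KLF10, KLF11 and KLF13 recruit, fell most, from 283 ± 12.6 to 203 ± 14.1 CPM (SD, n = 6 each, log2 fold change -0.48, adjusted p = 1.81e-06). KAT2B, an acetyltransferase, rose from 15.2 ± 1.98 to 17.5 ± 1.10 CPM (0.21, adjusted p = 0.0461). Of 8 ubiquitin ligases that act on KLF proteins or related factors, 1 rose and 0 fell (12.5% called), with a median of -0.04. That gene, FBXO32, went from 3.69 ± 0.713 to 5.79 ± 1.06 CPM (log2 fold change 0.69, adjusted p = 0.000962), with overlap between the groups.

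Inputs to the KLF genes were examined in the same way. Of the 5 ERK5 and MEF2 genes tested, which act upstream of KLF2 and KLF4, 2 rose and 0 fell (median 0.11). This is 40% called, near the 41.7% of all genes. MEF2C rose from 0.633 ± 0.108 to 2.86 ± 1.04 CPM (SD, n = 6 each, log2 fold change 2.22, adjusted p = 2.87e-06), from at most 15 counts per DMSO library, and MEF2A from 51.0 ± 5.74 to 61.6 ± 6.42 CPM (0.28, adjusted p = 0.00942). The DMSO libraries of MEF2C (7 to 15 counts) would not have met the filter without its PBKi libraries (23 to 94 counts). KLF2 and KLF4 themselves had estimates below 0 and were not called. Of 9 genes tested of the TGF-beta and SMAD pathway, which acts upstream of KLF10 and KLF11, 3 rose and 1 fell (median 0.07). That is 44.4% called, against 41.7% of all genes. Among those that rose, SMAD7 (log2 fold change 0.61, adjusted p = 0.00538) and SKIL (0.41, adjusted p = 0.00150) are inhibitors of the pathway. Replicates 1 to 3 alone gave 0.81 for SMAD7 and 0.65 for SKIL. In replicates 4 to 6 alone the estimates were 0.39 and 0.19, neither past the threshold. The receptor gene TGFBR2 rose most, from 1.98 ± 0.283 to 4.38 ± 0.154 CPM (log2 fold change 1.15, adjusted p = 5.34e-07), and SMAD4, the common SMAD, fell from 75.4 ± 4.29 to 64.2 ± 3.56 CPM (-0.23, adjusted p = 0.00216). Of 3 FOXO factors, FOXO1 (log2 fold change 0.39, adjusted p = 0.00335) and FOXO3 (0.31, adjusted p = 0.0184) rose, and FOXO4 was not called. That is 66.7% called, against 41.7% of all genes. Replicates 1 to 3 alone gave 0.49 for FOXO1 and 0.48 for FOXO3. In replicates 4 to 6 alone the estimates were 0.29 and 0.18, neither past the threshold.

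Steroid receptors and genes that steroids induce were examined because KLF9 and KLF15 are among the genes induced by steroids. Of 6 receptors listed, PGR, ESR1 and ESR2 were below the filter. Of the 3 tested, 2 rose and 0 fell (66.7% called, against 41.7% of all genes). NR3C1, the glucocorticoid receptor, rose from 0.229 ± 0.0975 to 1.60 ± 0.676 CPM (SD, n = 6 each, log2 fold change 2.72, adjusted p = 5.15e-06), a low level of at most 70 counts per library. It passed the filter only through its PBKi libraries, with 16 to 70 counts against 1 to 10 in DMSO. Its entry thus depended on the group where it was high, and the 66.7% is not read as a result about the receptors. NR3C2, the mineralocorticoid receptor, rose from 9.43 ± 1.08 to 15.2 ± 0.921 CPM (0.70, adjusted p = 2.89e-06). Of 9 steroid-induced genes, 5 fell and 3 rose (88.9% called), with a median log2 fold change of -0.48. TSC22D3, a mediator of glucocorticoid action, fell by 1.67, the clock gene PER1 by 0.71, the metallothionein gene MT2A by 0.67, the chaperone gene FKBP5 by 0.50 and the zinc finger gene ZBTB16 by 0.48 on the log2 scale (adjusted p from 8.03e-09 to 0.00325). SGK1, a kinase gene, rose by 0.50, CEBPD by 0.33 and ERRFI1 by 0.19 on the same scale (adjusted p from 0.0180 to 0.0357), and DUSP1 was not called. The fall of KLF9, -0.55, lay between those of MT2A and FKBP5, and KLF15 at -0.14 was smaller in size than each of the called genes of the list.

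**Figure D4:**
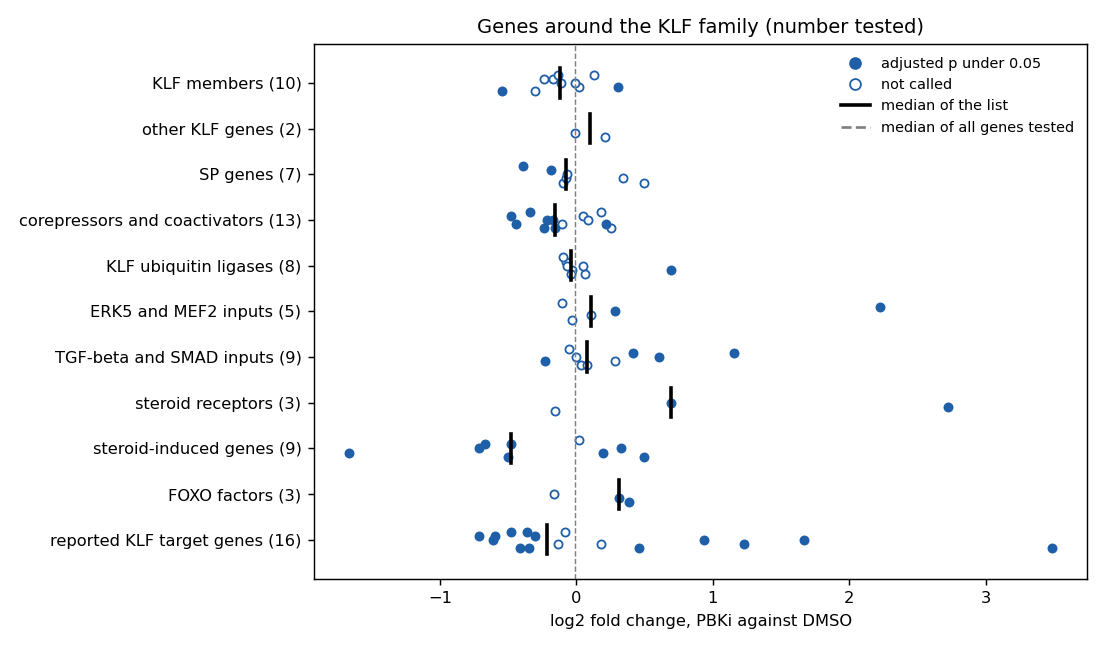
Log2 fold change, PBKi against DMSO, of each tested gene in the KLF members and 10 lists around them, with the number tested in brackets, filled points at an adjusted p under 0.05, black bars for the list median and a dashed line for the median of all genes. The KLF members lie between -0.55 and 0.31 around a median of -0.12, a narrower span than the steroid-induced genes (-1.67 to 0.50) or the reported targets (-0.71 to 3.49).

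Of 29 genes reported elsewhere as KLF targets, 16 were tested, and 8 of these fell and 5 rose, with a median log2 fold change of -0.22. This is 81.25% called, against 41.7% of all genes, a difference that was not tested. The list mixes genes that KLF factors activate with genes they repress, most were described in other tissues, and other factors act on them too. NOS3, an endothelial gene that KLF2 activates, rose most, from 3.75 ± 0.782 to 42.9 ± 8.42 CPM (SD, n = 6 each, log2 fold change 3.49, adjusted p = 6.77e-12), while KLF2 was at 1.57 ± 0.178 CPM in DMSO and 1.24 ± 0.189 in PBKi and was not called. KRT19, a keratin gene that KLF4 activates, fell most, from 1.93 ± 0.389 to 1.20 ± 0.475 CPM (-0.71, adjusted p = 0.0217), with overlap between the groups.

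The genes with the pattern most like KLF9 and KLF10 over the 12 libraries were taken from all genes tested. For KLF10 they were LINC00847, a long noncoding RNA (Pearson's r = 0.983), NXPE3 (r = 0.962) and MAGEA10 (r = 0.962). These rose by 0.53, 0.59 and 0.65 on the log2 scale, each more than KLF10. For KLF9 they were IARS2, the mitochondrial isoleucine tRNA ligase (r = 0.980), RBM24, an RNA-binding protein gene (r = 0.979), and PFKM, a glycolytic enzyme gene (r = 0.979). These fell by 0.30, 0.45 and 0.37 on the log2 scale, each less than KLF9. The libraries share treatment and replicate set, and the values are descriptions of the nearest of 14505 genes.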

How the data were processed

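The authors sequenced libraries of C4-2 cells as single-end reads of 40 bases, aligned them to GRCh37 (Ensembl release 64) with TopHat2 2.0.4 and counted reads per gene with HTSeq 0.5.3p9. The deposited values are these counts per gene and lane, not normalised, in 47 lane files. DESeq 1.10.1 was the authors' own test, and its output was not used here. Lane counts were summed per library, since lanes differed by no more than counting noise (a chi-square divided by its degrees of freedom of 0.993 to 1.02), while for replicates it was 4.11 to 25.2. Besides reads on genes, 3.87% to 4.35% of reads were ambiguous between genes, and they were left out together with reads outside genes. Symbols were matched to 47098 of the 54127 gene IDs by the supplied name tables. The strand setting of the counting is not given in the sources used here.

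A gene was tested where 6 or more libraries had 10 or more counts of it, by the quasi-likelihood test of edgeR 4.0.16 in R 4.3.3, with TMM factors and Benjamini-Hochberg adjustment over all genes tested, and a gene was called at an adjusted p under 0.05. Values per library are TMM-normalised CPM. Intervals of fold changes are 95% intervals of the same fit. Marker sums and depth were compared by exact permutation of the 12 libraries. On simulated counts of this comparison (14505 genes), 78% of 100 genes changed 1.5-fold and 90% of 100 genes changed 2-fold were recovered, and 4% of the calls were of unchanged genes. No other genes were changed there and no replicate-set effect was built in, whereas 41.7% of genes were called in the data. KLF9 (0.683 times) and KLF10 (1.24 times) changed by less than 1.5-fold, so these rates do not cover changes of the size of the members.

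The members and the gene lists around them were chosen with earlier results of these data known. All members are named. The values of 1 listed gene outside the members are not reported here. Other KLF and SP genes are named where tested. From each further list, cell type markers excepted, the called genes with the largest rise and the largest fall are named, and every called gene where the list held 9 genes or fewer. SMAD7 and SKIL are named in addition. Likeness was Pearson's r of log2 CPM (prior count 2) over the 12 libraries. Coding positions and exon lengths came from GENCODE 44 mapped to GRCh37, a newer annotation than that of the authors. The exon length of a gene was that of all its exons merged. Upstream sequences came from RefSeq for GRCh38.p14. Alternatives were DESeq2 1.42.0, limma-voom (limma 3.58.1), RLE factors, other count filters, a replicate block, a covariate for replicates 1 to 3 against 4 to 6, each of these sets alone, lanes 6 to 8 only, a stricter threshold of 0.01 and each library left out.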

Additional observations from a re-analysis of the deposited data

How the results depend on the processing

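KLF9 and KLF10 were called in the same direction in all 12 fits that left out 1 library and in the 11 other settings: KLF9 with log2 fold changes from -0.60 to -0.49 and from -0.59 to -0.51, and KLF10 from 0.28 to 0.34 and from 0.25 to 0.38. Members called as lower numbered 3 in place of 1 with the replicate block (KLF5 -0.24, adjusted p = 0.0236, and KLF13 -0.17, adjusted p = 0.00934, beside KLF9, so that 4 of 10 members were called against 50.2% of all genes) and 3 with the covariate for the replicate sets (again KLF5 and KLF13), and 1 to 3 with 1 library left out (3 without DMSO replicate 3, with KLF5 and KLF15, and 2 without DMSO replicate 5, with KLF5). Members called as higher numbered 2 in replicates 1 to 3 only, where KLF6 was added, and 1 in each fit without 1 library. Of all 14505 genes, the fit of replicates 1 to 3 only called 3352 as higher and 3187 as lower. Without DMSO replicate 3 these counts were 2765 and 2730, and without DMSO replicate 5 they were 3342 and 3216. Same-numbered libraries were not taken as paired in the main fit, since the labels give a replicate number but name no pairs. Their deviations from the group means correlated at 0.0887 to 0.299 and over 0.1 in 5 of 6 numbers. Own numbers correlated best in 3 of 6, and whether they form pairs is not known. Among the members, KLF5, KLF9 and KLF13 were lower in PBKi in 6 of 6 same-numbered pairs. KLF10 was higher in 6 of 6, and no other member went the same way in all 6. The share of all genes that went the same way in all 6 was not counted, so these numbers are a description only. Over all genes, replicates 4 to 6 only gave 1273 higher and 1207 lower, and an adjusted p under 0.01 gave 2073 lower. With 1 library left out, these counts were 2577 to 3342 higher and 2618 to 3216 lower. The sign turned for members near 0: KLF3 in replicates 4 to 6 only (-0.012), in lanes 6 to 8 only (-0.0014), without DMSO replicate 5 (-0.0077, within -0.0077 to 0.080 over the 12 fits) and without both DMSO replicate 5 and PBKi replicate 3 (-0.014, chosen after seeing the data), KLF4 in replicates 1 to 3 only (0.054), KLF6 in replicates 4 to 6 only (-0.024), and KLF11 with a filter of 1 CPM (0.0038), in replicates 1 to 3 only (0.0086) and with 1 library left out (-0.029 to 0.0089). The cause was not tested. No scaling moved the median of all genes by over 0.1 on the log2 scale. KLF2 rested on the fewest reads, 13 to 41 counts per library, and the part of counting error in its interval was not tested.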

Other observations

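Most KLF transcripts, like most of all genes tested, varied less among PBKi libraries than among DMSO libraries. The coefficient of variation was lower in PBKi for 8 of the 10 members, with KLF2 and KLF11 as the exceptions, and its median over members was 11.7% in DMSO and 5.45% in PBKi. KLF6 had the widest gap, 20.1% against 4.34%. The same direction was found for 69.9% of the 14505 genes tested, with medians of 11.7% and 8.46%. Without DMSO replicate 5 and PBKi replicate 3, which lie farthest out on the principal components and were left out after seeing the data, it was again lower in PBKi for 8 members (medians 11.9% and 5.57%) and for 60.1% of all genes (9.56% and 8.19%). No test of the spread was made, and the part of depth in it was not tested.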
